A study of Mus musculus with 2 samples.

Results

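The Wnt ligands, their receptors and their secreted modulators were examined in the open chromatin of mouse ileal enteroids. The genes were chosen by name alone: protein-coding genes of the mm9 annotation whose symbol is Wnt, Fzd, Sfrp, Dkk or Rspo followed by a number, together with Lrp5 and Lrp6. This gave 43 of 22367 protein-coding genes: 19 Wnt, 10 Fzd, 2 Lrp, 4 Sfrp, 4 Dkk and 4 Rspo genes. Enteroids are three-dimensional epithelial cultures grown from intestinal crypts, here from the ileum of 4-month-old mice of strain C57Bl6/129sv, and ATAC-seq marks DNA that a transposase can reach. The control enteroids carried Taf4lox/lox alleles without Cre. The Taf4-inactivated enteroids carried the same alleles with VilCreERT2, a Cre under the villin promoter, active in intestinal epithelium, that enters the nucleus on binding 4-hydroxytamoxifen (4-OHT). Both cultures received 1 µM 4-OHT for 3 days. Taf4 encodes a subunit of TFIID, the general factor that binds core promoters. Cre was present in the Taf4-inactivated culture alone, so that its activity and the loss of Taf4 cannot be told apart.

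Each genotype had 1 library, so no difference between the lists has a replicate check, and no p-value was computed. The control list held 90445 peaks and the Taf4-inactivated list 71282, at a depth estimated from the background as 60.5% of control. Median fold enrichment over the background of the same library was 2.03 and 2.45. Peaks were therefore compared by percentile of fold within their own list, from 0 for the weakest to 100 for the strongest. The control list is longer, so the same place counted from the top gives a lower percentile in the Taf4-inactivated list. This offset is larger for weaker peaks and was not removed. In bulk chromatin a weaker peak in all cells and an open site in fewer cells cannot be told apart. Of 18 epithelial marker genes, 15 had a start site peak in control (all but Krt20, Fabp1 and Fabp2) and 18 in Taf4-inactivated enteroids. Mesenchymal markers had one at 5 and 6 of 9 genes, endothelial markers at 2 and 1 of 4, immune markers at 1 of 5 in both lists, and neural and glial markers at 4 and 3 of 5. Col3a1, Pdgfrb, Acta2, Ptprc and Cd3e had none in either list. A start site peak is not a measure of expression, and the part of other cells in the results was not tested.

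Wnt proteins are secreted lipid-modified ligands that bind Frizzled receptors (Fzd) together with the co-receptors Lrp5 or Lrp6, which in the canonical branch stabilises beta-catenin and turns on TCF/LEF target genes. Sfrp proteins bind Wnt ligands outside the cell, most Dkk proteins block the co-receptors, and R-spondins (Rspo) strengthen the signal by protecting Frizzled receptors from degradation. In the gut this pathway maintains crypt stem cells, with ligands supplied by Paneth cells and by the mesenchyme below the epithelium, the latter also being a source of R-spondins.

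The stretches of the mm9 reference genome on which the results below turn were as follows, each written 5′ to 3′. The first 2 are the 250 bases before the 5′ end of a gene, on the strand of the gene. Wnt9a (chr11:59120180-59120429, plus strand) is a CpG-rich promoter with a control peak of low fold. Wnt3 (chr11:103635214-103635463, plus strand) has a peak in Taf4-inactivated enteroids alone. The last 2 are the middle 200 bases, on the plus strand, of the highest-ranked other peak of the control list, in an intron of Lrp6 (chr6:134465938-134466137), and of the Taf4-inactivated peak upstream of Fzd7 (chr1:59532504-59532703). Capitals mark matches on either strand to 1 of 7 motifs, which were GGGCGG for SP/KLF, CTTTGAA and its variant CTTTGAT for TCF/LEF, TATAAA for the TATA box, AGATAA for the GATA factors, TTTATGG and its variant TTTATTG for CDX, CAAAGTCCA for HNF4 and TGACTCA for AP-1. HNF4 on one strand shares the letters CTTTG with TCF/LEF on the other. The matches are of SP/KLF in Wnt9a and Wnt3, and of GATA and then AP-1 in the Fzd7 peak. The Lrp6 stretch held none.
Wnt9a promoter: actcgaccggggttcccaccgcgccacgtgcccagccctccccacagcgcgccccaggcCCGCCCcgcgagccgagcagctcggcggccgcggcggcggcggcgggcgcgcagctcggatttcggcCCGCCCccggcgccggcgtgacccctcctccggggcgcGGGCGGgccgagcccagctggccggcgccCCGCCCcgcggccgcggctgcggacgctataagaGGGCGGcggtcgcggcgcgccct
Wnt3 promoter: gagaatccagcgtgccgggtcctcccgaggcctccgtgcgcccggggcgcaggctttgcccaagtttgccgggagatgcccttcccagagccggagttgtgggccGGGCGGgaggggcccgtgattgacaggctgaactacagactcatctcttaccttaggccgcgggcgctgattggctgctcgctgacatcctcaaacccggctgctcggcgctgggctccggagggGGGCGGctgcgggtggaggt
Lrp6 intron peak: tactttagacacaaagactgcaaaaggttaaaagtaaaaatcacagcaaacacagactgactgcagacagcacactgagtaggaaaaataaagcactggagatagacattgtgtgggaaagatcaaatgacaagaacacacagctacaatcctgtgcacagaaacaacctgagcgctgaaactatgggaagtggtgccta
Fzd7 upstream peak: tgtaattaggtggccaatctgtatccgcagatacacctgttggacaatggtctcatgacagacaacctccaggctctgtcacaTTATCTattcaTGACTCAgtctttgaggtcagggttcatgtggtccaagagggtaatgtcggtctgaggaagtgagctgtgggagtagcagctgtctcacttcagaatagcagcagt

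Nearly all genes of the 6 families had an accessible start site in both cultures. A peak within 1 kb of an annotated start site was found at 41 of 43 genes in control (95.3%, 95% exact Clopper-Pearson interval 84.2 to 99.4) and at 40 of 43 in Taf4-inactivated enteroids (93.0%, interval 80.9 to 98.5), beside 68.4% and 65.6% of all protein-coding genes. Both lists held one at 38 genes (88.4%, background 62.7%), and every gene had one in at least 1 list. The intervals cover counting error over genes only. By family, a start site peak was present at 18 of 19 Wnt genes in each list, at all 10 Fzd and both Lrp genes in each list, at 4 and 3 of 4 Sfrp genes, at 3 and 4 of 4 Dkk genes, and at 4 and 3 of 4 Rspo genes. Wnt8a, Sfrp5 and Rspo2 had one in control alone, 3 of 43 genes against a background of 5.7%. Wnt3 and Dkk4 had one in Taf4-inactivated enteroids alone, 2 of 43 against 2.9%.

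The high share of genes with a peak rested largely on peaks of low fold or significance. With the lists cut to the 40000 peaks of highest fold, 23 genes (53.5%) had a start site peak in control and 20 (46.5%) in Taf4-inactivated enteroids, beside 53.6% and 55.5% of all coding genes. With the 40000 peaks of highest −log10 p the share stayed above the background, at 31 genes (72.1%) in each list beside 59.1% and 58.1%, and a −log10 q of at least 2 left 34 (79.1%) and 33 (76.7%) beside 60.6% and 60.2%. At a −log10 q of at least 5, 7 genes (16.3%) and 11 genes (25.6%) had one, beside 35.5% and 46.5%. Of these, 6 and 8 were Fzd genes, 0 and 2 were Wnt genes, 1 in each list was an Lrp gene, and no Sfrp, Dkk or Rspo gene was among them. The median width of the start site peaks was 1162 bp for control and 921 bp for Taf4-inactivated enteroids, against 1049 and 979 bp over all coding genes with one.

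**Figure D1:**
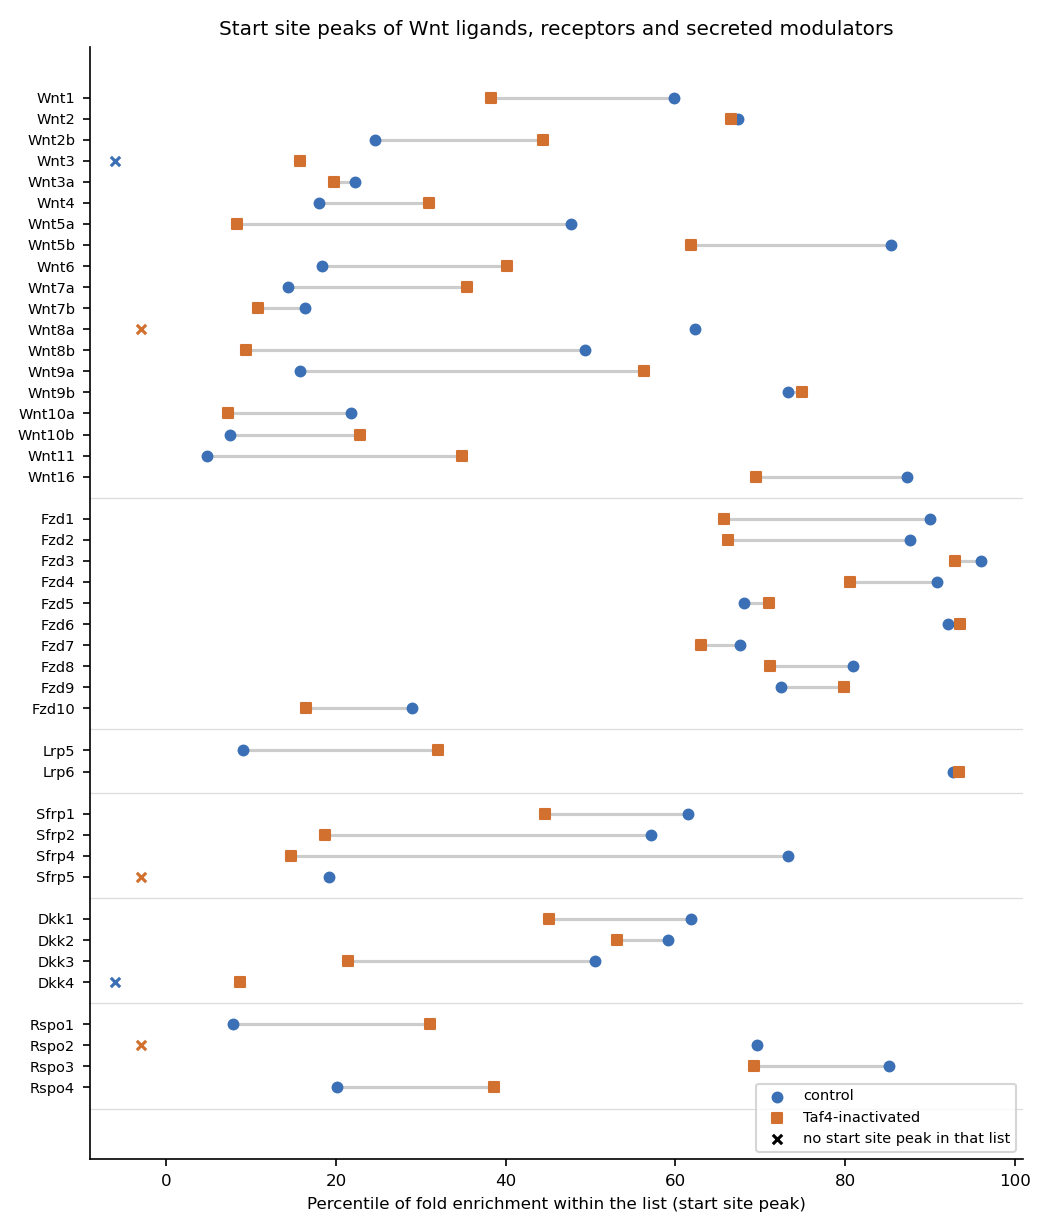
Percentile of fold enrichment of the start site peak of each of the 43 genes within the control list (circles) and the Taf4-inactivated list (squares), joined by a line where both exist, with crosses for a list without such a peak; 1 library per genotype, no error bars. Fzd genes other than Fzd10 lie at the right in both lists, and most Wnt genes at the left.

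The receptors and the ligands differed in peak strength by fold. The median percentile of Fzd start site peaks was 84.3 in control and 71.0 in Taf4-inactivated enteroids, beside 86.5 and 81.5 for all coding genes with one. For Wnt genes it was 23.4 and 35.1, for Sfrp genes 59.4 and 18.7, for Dkk genes 59.2 and 33.2, and for Rspo genes 44.8 and 38.7. Peaks in the top 10% of their list were found at 5 genes in control (Fzd1, Fzd3, Fzd4, Fzd6 and Lrp6) and at 3 in Taf4-inactivated enteroids (Fzd3, Fzd6 and Lrp6). That is 12.2% and 7.5% of the genes with a peak, beside 41.8% and 32.1% of all coding genes with one. No Wnt gene reached the top 10% in either list. Peaks below percentile 25 were found at 10 Wnt genes in control and 7 in Taf4-inactivated enteroids. Over all 43 genes the counts were 14 and 12 (34.1% and 30% of those with a peak), beside 9.67% and 8.10% of all coding genes with one. These ranks are by fold alone. By −log10 p, Wnt start site peaks ran from percentile 40.1 (Wnt10b) to 86.5 (Wnt5b) in control. In the Taf4-inactivated list they ran from 2.48 (Wnt8b) to 78.8 (Wnt9b). Fzd peaks ran from 46.6 (Fzd10) to 93.2 (Fzd3) in control and from 29.2 (Fzd10) to 91.7 (Fzd5). The median width of Wnt start site peaks was 1171.5 and 746.5 bp.

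**Figure D2:**
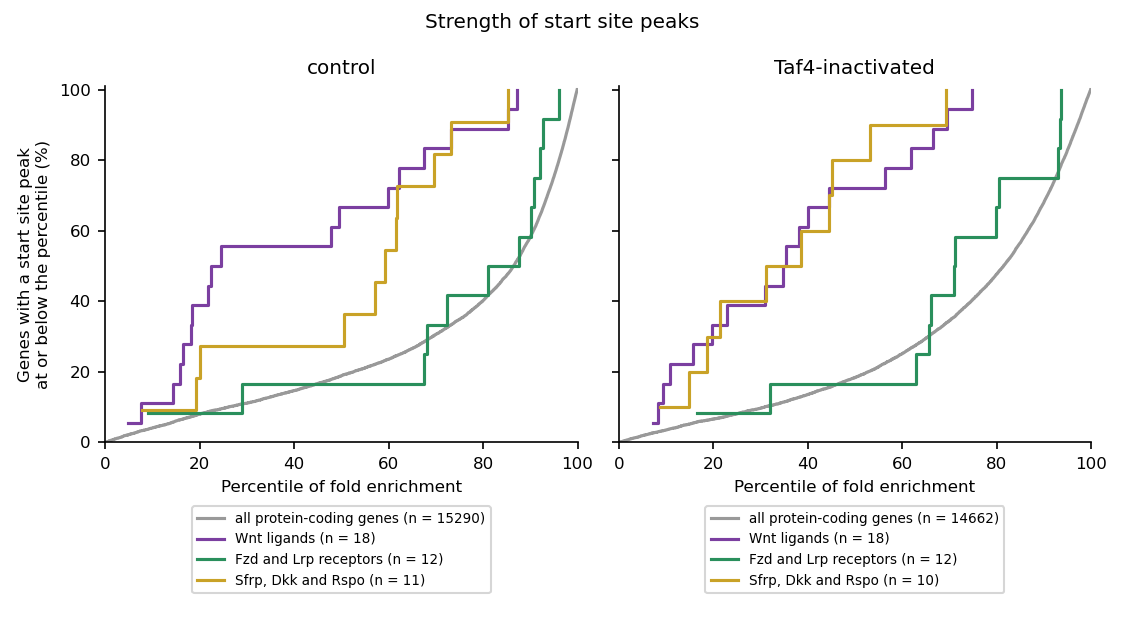
Share of genes (vertical axis, %) whose start site peak lies at or below a given percentile of fold enrichment (horizontal axis), for all protein-coding genes, Wnt ligands, Fzd and Lrp receptors, and Sfrp, Dkk and Rspo genes, in control (left) and Taf4-inactivated (right). The Wnt line rises far earlier than that of all genes, whose median is 86.5 and 81.5. The receptor line lies closer to that of all genes. In Taf4-inactivated it is to the left of it near the median, where Fzd genes alone have 71.0.

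In what follows a number in parentheses after a fold is its percentile, control first. Among the ligands, the strongest start site peak in control was that of Wnt16, at 2.47-fold and percentile 87.2. In the Taf4-inactivated list it had 2.80-fold and percentile 69.5. Wnt9b, a ligand best known from kidney development, was strongest in Taf4-inactivated enteroids, with 2.21-fold in control (percentile 73.2) and 2.96-fold (74.9). Wnt9b thus ranked nearly alike in both lists. Wnt5b had 2.41-fold in control (85.4) and 2.63-fold in Taf4-inactivated enteroids (61.8), but these peaks lay at different annotated starts of the gene and did not overlap. Wnt2 stood at percentiles 67.4 and 66.6, with 2.15-fold and 2.73-fold. The ligands Wnt3a, Wnt7b and Wnt10a were at or below percentile 22.3 in both lists, and Wnt10b at or below 22.9.

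Wnt3, the ligand made by Paneth cells in the crypt, had no start site peak in control, where the nearest peak lay 9882 bp from its 5′ end. The Taf4-inactivated list held a weak one of 217 bp (chr11:103635550-103635766) inside the gene, at 2.15-fold, percentile 15.8 and a −log10 q of 2.32. Elsewhere at this locus both lists held peaks, whose ranks went both ways. The region near 9882 bp upstream had 2.20-fold in control (72.4) and 3.06-fold in Taf4-inactivated enteroids (77.8). An intronic peak 40810 bp into the gene had 1.93-fold (28.1) and 3.49-fold (87.0). The strongest control peak there, in an intron 26414 bp into the gene, had 2.49-fold (87.9) and 2.69-fold (65.0). An intronic peak at 35697 bp had 1.82-fold (9.92) and 2.06-fold (7.48). A downstream peak at the start of the neighbour Nsf had 2.28-fold (78.7) and 3.22-fold (81.9). Wnt8a had a control peak of 2.11-fold (62.3) and none within 2914 bp in Taf4-inactivated enteroids.

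Wnt5a is a ligand of the non-canonical branch made in the gut by mesenchyme, and the study also lists it among Paneth cell ligands. It had 2.02-fold in control (47.7) and 2.07-fold in Taf4-inactivated enteroids (8.29). The compared peaks were 249 bp and 2505 bp wide, so that their ranks by width ran the other way. Wnt8b stood at percentile 49.4 (2.03-fold) in control and 9.38 (2.08-fold) in Taf4-inactivated enteroids. Wnt9a went from percentile 15.8 in control (1.86-fold, chr11:59119960-59121500) to 56.4 in Taf4-inactivated enteroids (2.54-fold, chr11:59120007-59121806), over the CpG-rich promoter printed above. Ranked by −log10 p instead, Wnt9a was 8.60 points higher. Wnt11, another non-canonical ligand, went from 4.80 (1.76-fold) to 34.9 (2.29-fold), again at different annotated starts without overlap of the peaks.

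By count, the Frizzled receptors, with 10 genes, held the most start site peaks in the top 10% of the 6 families, at 4 and 2 genes. As a share that is 40% and 20%, beside 41.8% and 32.1% of all coding genes with a peak. Of the 2 Lrp genes 50% were there in each list. Fzd3 was at 2.99-fold in control (96.0) and 3.93-fold in Taf4-inactivated enteroids (93.0). Fzd6 was at 2.68-fold (92.1) and 3.99-fold (93.6), the highest percentile of the family in Taf4-inactivated enteroids. Both genes ranked nearly alike in the lists, with differences of −3.08 and 1.46 points. Fzd5 and Fzd7, receptors used in the intestinal crypt, were at percentiles 68.1 and 67.6 in control (2.16-fold and 2.15-fold) and 71.0 and 63.0 in Taf4-inactivated enteroids (2.84-fold and 2.65-fold). Their peaks were wide, 3496 and 2899 bp at Fzd5 and 2776 and 2515 bp at Fzd7. Fzd1 and Fzd2 were at rank differences of −24.3 and −21.4 points, short of the 25 points used as a call. Fzd2 had 2.48-fold (87.6) and 2.72-fold (66.2). Fzd10 was the weakest of the family at percentiles 28.96 and 16.5.

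The 2 co-receptors stood far apart by fold. Lrp6 had 2.72-fold in control (92.8) and 3.98-fold in Taf4-inactivated enteroids (93.4). Lrp5 had 1.81-fold (9.03) and 2.27-fold (32.1), a rank difference of 23.0 points. Lrp6 thus lay in the top 10% of both lists, while Lrp5 was in the lower part of both.

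The secreted antagonists other than Sfrp5 and Dkk4 held peaks of middle rank in control and ranked lower in Taf4-inactivated enteroids. All 6 Sfrp and Dkk genes with a peak in both lists ranked lower there, with differences from −58.5 to −6.05 points. Of all coding genes 34.2% ranked higher, but their median percentiles were 86.5 and 81.5. The sign was not compared with coding genes of like rank, and the unequal list lengths alone lower the percentile of a peak of middle rank. Sfrp4, a secreted Wnt-binding protein, had 2.21-fold in control (73.2) and 2.14-fold in Taf4-inactivated enteroids (14.8), with a width of 1032 and 502 bp. Sfrp2 had 2.07-fold (57.2) and 2.17-fold (18.7). Sfrp1 had 2.103-fold (61.5) and 2.38-fold (44.6). Sfrp5 had a control peak of 1.88-fold (19.2) and its nearest Taf4-inactivated peak at 2165 bp. Markers of cell types went both ways. Of the 5 mesenchymal markers with a peak in both lists, 4 ranked lower (median −28.7 points), 3 of them by 25 points or more, namely Pdgfra (−41.0), Vim (−30.3) and Des (−28.7), with Col1a2 at −22.7 and Col1a1 at 7.36. Thy1 had a peak in Taf4-inactivated enteroids alone. Of the endothelial markers only Kdr had a peak in both lists (−57.1), and of the immune markers only Itgam (−29.9). The neural and glial markers with both were Elavl4 (−12.7) and Tubb3 (63.6). Of 15 epithelial markers with both, 8 ranked lower and 7 higher (median −2.16), from Krt18 at −32.3 to Lyz1 at 36.1. Of all coding genes with a mean percentile over both lists below 75, 23.2% ranked lower by 25 points or more. The part of these cell types in the ranks of the antagonists was not tested. The direction at Sfrp2 turned when peaks were ranked by width (18.6 points higher).

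Dkk1, a co-receptor antagonist, had the highest control percentile of its family (2.105-fold, 61.8) and 2.39-fold (45.1) in Taf4-inactivated enteroids, where Dkk2 was highest at 2.49-fold (53.1), after 2.09-fold (59.2) in control. Dkk3, a divergent member of the family, had 2.03-fold (50.6) and 2.19-fold (21.4). Dkk4 had no control peak within 3609 bp and a weak one in Taf4-inactivated enteroids at 2.07-fold (8.65). No Dkk promoter reached the CpG ratio of 0.6 described below, and 3 of 4 held the letters TATAAA.

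Of the R-spondins, Rspo3 had the strongest start site peak, with 2.41-fold in control (85.2) and 2.80-fold in Taf4-inactivated enteroids (69.3), although the latter peak spanned 200 bp against 1983 bp in control. Rspo2 had 2.17-fold in control (69.6), and its nearest Taf4-inactivated peak lay 24498 bp away. Rspo1 had 1.798-fold (7.83) and 2.26-fold (31.1), 23.2 points higher in Taf4-inactivated enteroids. Rspo4 had 1.89-fold (20.1) and 2.32-fold (38.7). Both Rspo1 and Rspo4 were low in fold in control.

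Differences in rank between the lists went both ways, and how often they were large depended on the strength of the peaks and on the measure ranked. Among the 38 genes with a peak in both lists, 15 ranked higher and 23 lower in Taf4-inactivated enteroids, with a median difference of −5.05 points against −2.77 over all coding genes. A rank lower by 25 points or more was seen at 5 of 38 genes (Sfrp4, Wnt8b, Wnt5a, Sfrp2 and Dkk3; background 9.08%), and one higher by that much at 2 (Wnt9a and Wnt11; background 5.93%). Large shifts were more frequent where peaks were weak. With a mean percentile over both lists below 75, 5 of 28 genes were lower (17.9%) and 2 higher (7.14%), against 23.2% and 15.96% of the 5026 coding genes there. At 75 or more, 0 of 10 did in either direction, against 1.18% and 0.323% of 8988. By fold, the shares of the members were below those of coding genes in the weaker class. Ranked by −log10 p, 8 of the 38 were lower by 25 points or more and 0 higher, against 9.62% and 2.79% of all coding genes, and classes of like strength were not formed for that ranking. The peaks of 35 of the 38 genes overlapped between the lists.

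**Figure D3:**
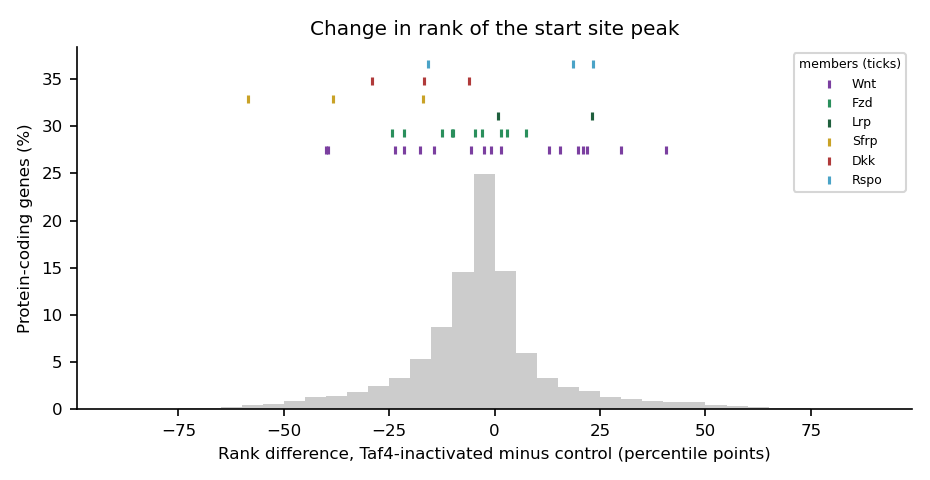
Difference in percentile of the start site peak, Taf4-inactivated minus control (horizontal axis, percentile points): bars give the share of 14014 protein-coding genes with a peak in both lists, in % (vertical axis), and ticks the 38 genes of the 6 families, with 1 row of ticks per family whose height has no scale. Sfrp and Dkk ticks all lie below 0, down to −58.5 at Sfrp4.

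Away from start sites, the ligand genes were surrounded by many weak peaks. Within the gene bodies plus 10 kb on each side, the 43 genes held 140 other peaks in control and 100 in Taf4-inactivated enteroids, or 6.31 and 4.51 per 100 kb against 4.14 and 3.23 for all coding genes. Wnt genes held 82 and 62 of them (9.17 and 6.93 per 100 kb). Their median percentiles were 20.9 and 22.3, below the 43.7 and 46.2 of all other peaks near coding genes. Among the 40000 peaks of highest fold, Wnt genes had 1.57 and 2.01 per 100 kb, against 1.58 and 1.69 for all coding genes, so the higher density rested on peaks of low fold. In the top 40000 by −log10 p it was 2.68 in both lists against 1.66 and 1.75. Fzd genes had 14 and 7 other peaks, Lrp genes 21 and 15, Sfrp genes 11 and 6, Dkk genes 10 and 5, and Rspo genes 2 and 5. Of the peaks without overlap in the other list, 25 of 82 in control and 5 of 40 in Taf4-inactivated enteroids lay in coding exons. Of those with overlap, 9 of 58 and 11 of 60 did. Places were not counted for the peaks near all coding genes, so these coding exon counts have no background. Whether they are particular to the members was not tested. The numbers of other peaks include peaks at the start site of another coding gene, in the background too. There were 7 and 6 of these, among them the start site peak of Wnt10a, which lies within 10 kb of Wnt6, in each list. Without them 133 and 94 peaks were left, of which 39.1% and 57.4% overlapped the other list.

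Among the peaks of control enteroids, 58 of 140 (41.4%, interval 33.2 to 50.1) overlapped a Taf4-inactivated peak, against a background of 44.6%. Of the Taf4-inactivated peaks, 60 of 100 (60.0%, interval 49.7 to 69.7) overlapped a control peak, against 57.6%. Both shares were near the background. None of the 10 control and 5 Taf4-inactivated peaks around Dkk genes overlapped one of the other list, which allows a share of up to 30.8% and 52.2% by the upper bounds of the exact intervals. The same held for the 2 and 5 peaks around Rspo genes (up to 84.2% and 52.2%). Around Lrp genes 12 of 21 and 12 of 15 peaks overlapped (57.1% and 80%).

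**Figure D4:**
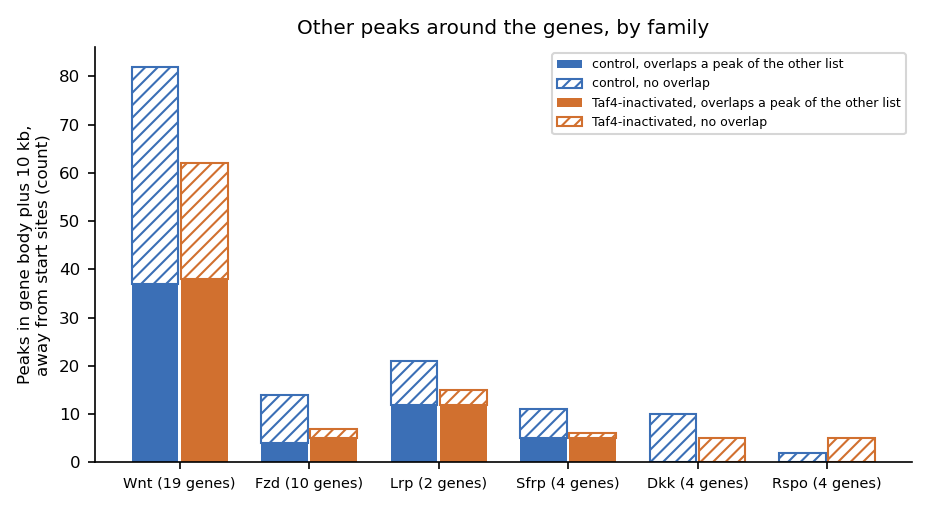
Number of peaks in gene bodies plus 10 kb and more than 1 kb from the start sites of the same gene, peaks at starts of other genes included (vertical axis, count), by family and list; filled bars overlap a peak of the other list and hatched bars do not. Wnt genes hold 82 and 62 peaks, and no bar of Dkk or Rspo genes has a filled part.

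The 5 strongest of these peaks in Taf4-inactivated enteroids, and 2 of the 5 strongest in control, lay at receptor genes. The highest in both lists was an intronic peak of Lrp6, 3.30-fold in control (98.2; chr6:134465454-134466621) and 5.07-fold in Taf4-inactivated enteroids (99.1; chr6:134465433-134466610). Further Taf4-inactivated peaks of Lrp6 were at 4.204-fold in an intron (95.4; control 2.55-fold, 89.4) and at 3.76-fold downstream (91.01; control 2.75-fold, 93.2). A peak upstream of Fzd7, 6123 bp from its 5′ end in control, had 2.79-fold (93.7; chr1:59532546-59532868) and 4.59-fold (97.6; chr1:59532287-59532920). One downstream of Fzd4 had 2.60-fold (90.6) and 3.79-fold (91.3). These regions thus ranked high in both lists. Upstream of Wnt8a, a peak had 2.81-fold in control (94.0) and 2.40-fold in Taf4-inactivated enteroids (45.9). A pair of strong control peaks belonged to start sites of neighbours, Arf3 downstream of Wnt10b (2.87-fold, 94.7) and Epdr1 upstream of Sfrp4 (2.84-fold, 94.4), with 3.38-fold (85.2) and 3.41-fold (85.6) in Taf4-inactivated enteroids.

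Peaks without overlap in the other list had a median percentile of 21.8 in control and 16.8 in Taf4-inactivated enteroids, against 33.3 and 41.5 with overlap. Near all coding genes the medians were 34.8 and 35.4 without overlap and 59.8 and 56.5 with it. Control peaks of Sfrp genes (15.4 without, 7.27 with) and Taf4-inactivated peaks of Fzd genes (41.7 and 35.4) went the other way. The highest without overlap in control lay in a coding exon of Wnt2 (2.41-fold, 85.2), a coding exon of Wnt16 (2.37-fold, 83.8) and an intron of Dkk3 (2.36-fold, 83.5). In the Taf4-inactivated list they lay upstream of Wnt8a (3.55-fold, 88.0), in an intron of Lrp5 (3.52-fold, 87.6; chr19:3645753-3646202) and in an intron of Wnt6 (3.18-fold, 81.0; chr1:74819707-74820050). Wnt6 and Wnt10a lie 19624 bp apart, and peaks around them were counted once where they lay near both.

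**Figure D5:**
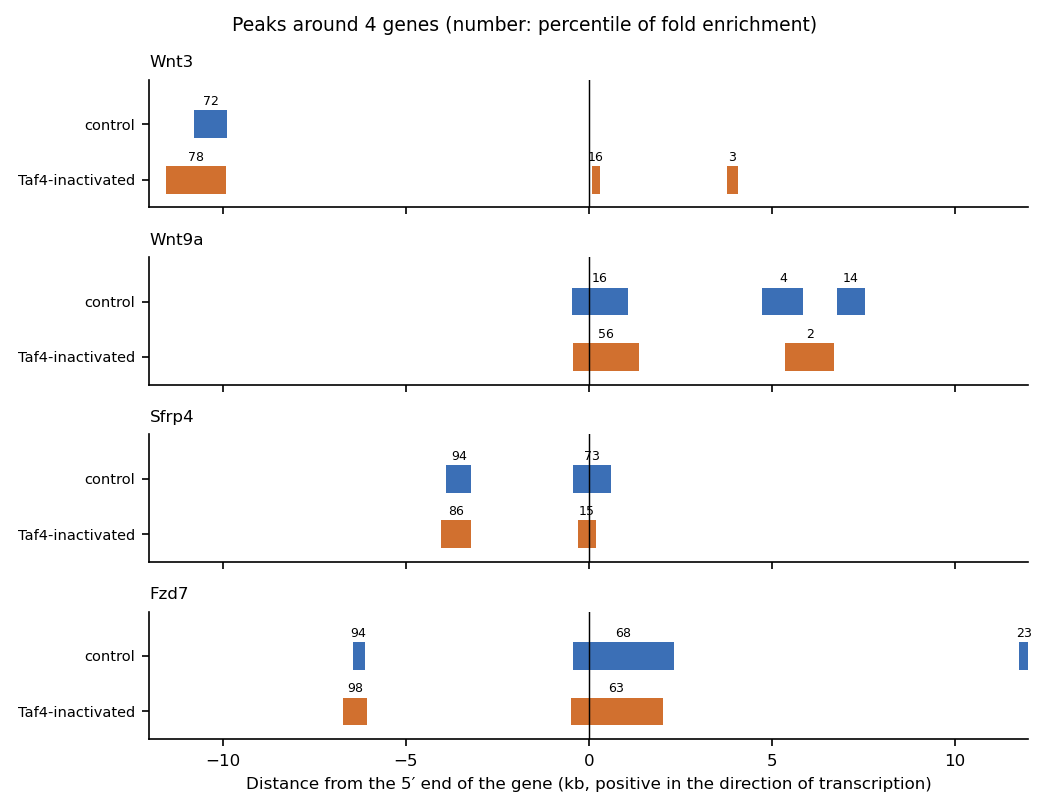
Peaks around Wnt3, Wnt9a, Sfrp4 and Fzd7 by distance from the 5′ end of the gene (kb, positive in the direction of transcription), control above and Taf4-inactivated below; the number above a peak is its percentile of fold enrichment, rounded. At the Wnt3 start a peak is drawn in Taf4-inactivated enteroids alone, at Sfrp4 the start site peak has percentiles 73.2 and 14.8, and at Fzd7 the upstream peak is in both.

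The promoters of these genes were rich in CpG. In the window from 250 bases before to 50 after the 5′ end, the median ratio of observed to expected CpG was 0.744, against 0.534 over all coding genes, and 28 of 43 (65.1%) reached 0.6, against 45.2%. Among genes at 0.6 or above, 27 of 28 members (96.4%) had a start site peak in each list, close to the 95.4% and 94.5% of all coding genes. Below it, 14 and 13 of 15 members (93.3% and 86.7%) had one, against 46.1% and 41.7%. Strength by fold differed between families at like CpG content. CpG-rich Wnt genes had median percentiles of 18.3 and 36.8, whereas CpG-rich Fzd genes had 85.5 and 75.5 and all CpG-rich coding genes 90.9 and 86.1. The Wnt9a promoter printed above had a CpG ratio of 1.10.

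Motif letters were counted in the same window of 300 bases. SP/KLF letters were in 27 of 43 members (62.8%) and 43.4% of all promoters, and TCF/LEF letters in 3 (Wnt8a, Wnt11 and Dkk4; 6.98%) and 8.003%. TATA letters were in 5 (11.6%) and 13.4%, GATA letters in 3 (6.98%) and 10.3%, CDX letters in 1 (2.33%) and 6.57%, and AP-1 letters in 1 (Wnt5b; 2.33%) and 4.42%. HNF4 letters were in 2 members (4.65%), Wnt3 among them, and 0.456% of all promoters, the Wnt3 match lying within the 50 bases after the 5′ end. In the 300 bases at the centre of the other peaks, TCF/LEF letters were in 6.43% of control and 6% of Taf4-inactivated peaks of the members, against 8.08% and 9.73% near all coding genes. A match is a run of letters and not a bound site.

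Further genes of the pathway had higher median percentiles than the ligands. Of 39 such genes, from ligand secretion to the nuclear factors, 37 had a start site peak in control and 34 in Taf4-inactivated enteroids, with median percentiles of 88.1 and 77.7. Sostdc1 and Kremen2 had none in either list, and Sost, Dkkl1 and Dvl2 had one in control alone (3 of 39, background 5.7%). Of the 34 with both, 27 ranked lower and 7 (20.6%) higher in Taf4-inactivated enteroids (median −7.22 points), against 34.2% higher over all coding genes. The rank was lower by 25 points or more at 3 of 34, near the background of 9.08%, and higher by that much at 1 (background 5.93%). The lower ones were Ptk7, a pseudokinase co-receptor (63.9 in control, 6.24 in Taf4-inactivated enteroids), and the transcription factors Tcf7l1 (84.8 and 57.8) and Tcf7l2 (84.7 and 58.1). Notum, which removes the lipid from Wnt proteins, was the higher one (25.5 and 60.2). The R-spondin receptors Lgr4 (97.5 and 96.2) and Lgr5 (94.4 and 77.5), and Rnf43, the ubiquitin ligase that removes Frizzled receptors (93.3 and 94.2), ranked above percentile 75 in both lists, whereas the third R-spondin receptor, Lgr6, stood at 24.3 and 6.01.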

How the data were processed

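Broad peaks of ATAC-seq from 2 enteroid libraries, 1 per genotype, were analysed, and the genotype (WT or KO) was read from GEO's labels and its alleles from the study's methods. Reads had been mapped by the authors to mm9 with Bowtie, keeping unique matches, and peaks called in each library with MACS2. The submitters' processing notes name bcl2fastq 2.17.1.14, Bowtie 1.0.0 and MACS2 2.1.1. The authors deposited for each peak a score, the fold enrichment over the background of that library, and −log10 p and −log10 q values. In all peaks the deposited score equalled 10 times the −log10 q, truncated to an integer. Read counts per peak were not used, and the treatment of duplicate and mitochondrial reads was not given in the sources used here. The lists thus depend on depth. Depth was estimated from the background level, 12.1 reads for control and 7.35 for Taf4-inactivated enteroids, which gives both fold and p of a peak (5th percentile over the narrowest 10% of peaks).

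Coordinates were made 1-based and set on the GENCODE annotation of mm9, with 0 peaks past a chromosome end. A gene was represented by its start site peak of highest fold within 1 kb of any annotated start. Peaks overlapping by 1 bp were counted as shared. A rank difference of 25 percentile points was used as a call. Assignment, overlap and depth were tested on simulated data. Intervals are exact Clopper-Pearson at 95% and cover counting error only. Python 3.11.15, numpy 2.4.6, pandas 2.3.3, scipy 1.17.1, pysam 0.24.0 and matplotlib 3.10.9 were used. The genes, the lists and the alternatives (distance, flank, q threshold, overlap, equal list length, ranking) were chosen with earlier results of these data known. Values in full are given for genes with a start site peak in 1 list, the 4 largest rank differences each way, the highest percentile per family and list, genes known in gut or its niche, and, of the other peaks, the 5 highest of each list and the 3 highest without overlap. Some promoter sequences are not reported here. Foxl1, a mesenchymal marker, was not matched in the annotation. Differences between genotypes carry no p-value, as neither had a replicate.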

Additional observations from a re-analysis of the deposited data

How the results depend on the processing

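No paired analysis was possible because each genotype had a single library, and none could be left out. Of 120 alternative values of 17 summary results, 73 stayed near the value reported, 45 moved and 2 changed direction. Near meant counts and differences within 1.5 times it, and shares within its interval. Of 59 values of 12 single-gene results, 51 stayed near the value reported (within 25 points), 5 moved and 3 changed direction. Those 3 started from differences of 25 points or more. A change of sign from a smaller difference was counted as near or moved. Stricter lists hold fewer peaks by construction. With a −log10 q threshold of 2, the genes with a start site peak in 1 list alone numbered 8 (control) and 7. These were 18.6% and 16.3% of the members, beside 4.998% and 4.56% of all coding genes. At 5 such genes numbered 1 and 5 (2.33% and 11.6%, beside 1.41% and 12.4%). At that threshold 7 genes had a peak in control, 11 in Taf4-inactivated enteroids and 6 in both, and the pathway counts were 19, 22 and 18. The top 40000 by fold gave 23, 20 and 18 genes. Of these, 5 were in control alone (11.6%, beside 4.89%) and 2 in Taf4-inactivated enteroids alone (4.65%, beside 6.78%). The top 40000 by −log10 p gave 23 in both and 8 in each list alone (18.6%, beside 5.499% and 4.44%). The members thus exceeded the background in both lists at 2 and by −log10 p. By fold they did so in control alone, and at 5 both shares were near it. Classes of like strength were not formed for these counts, so whether the excess is particular to the members was not tested.

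Other peaks numbered 86 and 59 in gene bodies alone and 347 and 274 with 50 kb flanks, windows that differ in length by construction. They numbered 54 and 54 at a −log10 q of at least 2, 10 and 19 at 5, 34 and 39 in the top 40000 by fold, and 47 and 44 by −log10 p. The overlapping share was 51.9% in control at 2, 70.0% and 36.8% at 5, 52.9% and 48.7% in the top 40000 by fold, and 30% and 42% when 50% of both peaks had to overlap. The Taf4-inactivated minus control difference of that share was 12 points with 50% overlap, 3.70 at 2 and 5.61 in the top 40000 by −log10 p. It turned to −33.2 at 5 and −4.22 in the top 40000 by fold. Near all coding genes, 4499 and 10626 other peaks were left at 5, and 19772 and 21181 in the top 40000 by fold. These shares have no background from all coding genes, so whether the turn is particular to the members was not tested. Genes ranking 25 points lower numbered 8 and higher 0 by −log10 p (9.62% and 2.79% of all coding genes), and 2 and 0 when ranked among start site peaks of coding genes (8.63% and 5.11%). Higher ones numbered 1 by width (7.66%) and 1 among overlapping pairs (5.48%). Of the 38 genes, 22 kept the sign of their rank difference by width and 34 by −log10 p. By width, the rank difference turned at Sfrp2 (18.6), Wnt11 (−66.8) and Wnt5a (87.8). From smaller differences it also turned at Fzd2 (4.26), Wnt9b (−17.5), Lrp6 (−10.1) and Fzd5 (−0.143). Apart from the list and window sizes, the cause was not tested.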
